A study of Homo sapiens with 9 samples.

Results

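The 8 genes described here, FAS, TNFRSF10A, TNFRSF10B, CASP8, CASP9, XIAP, BIRC2 and BIRC3, encode death receptors, initiator caspases and inhibitor of apoptosis proteins (IAPs). They were chosen by name, and their symbols were matched to the Ensembl identifiers of the deposited count table, which lists 60664 genes. Of these 8 genes, 7 passed the filter on low counts, as did 17207 genes in all, and FAS did not.

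Huh-7 cells derive from a human liver tumour, a hepatocellular carcinoma. The mRNA of 3 untreated Huh-7 lines growing in DMEM F12 with heat-inactivated serum was sequenced, with 3 libraries per line: wild type (WT), a line without the gene of the small vault RNA vtRNA1-1 (1-1 KO) and a line without that of vtRNA1-2 (1-2 KO). The WT and 1-1 KO lines came from another laboratory, while the 1-2 KO line is 1 single cell clone that the authors derived from WT by CRISPR/Cas9, so each genotype is 1 line and line and genotype cannot be told apart. The RNA was extracted in triplicate, and the libraries of a line are described as biological replicates, without a statement on whether each came from its own culture. If they did not, the p-values measure only the spread between these libraries.

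Total counts were between 32384469 and 41782387 per library. Of the deleted genes, VTRNA1-1 had a single count, in WT replicate 1, and VTRNA1-2 had 0 in all 9 libraries, so these mRNA libraries do not check either deletion. All 10 hepatocyte-lineage markers were detected with over 3 counts in every library, and their summed level was 15378 to 16319 CPM (counts scaled to the depth of each library) in WT, 31704 to 32649 in 1-1 KO and 21812 to 23890 in 1-2 KO. Of 12 markers of other cell types, 6 exceeded 3 counts in every WT and every 1-1 KO library and 7 in every 1-2 KO library, with summed levels of 269 to 303, 457 to 465 and 318 to 416 CPM. KRT5 was at 0 or 1 count in every library, and CD68 had 0 to 3. Others of the 12 were well detected, with 7350 to 14100 counts for KRT19, 1093 to 4421 for EPCAM and 607 to 2892 for COL1A2. PECAM1 had 231 to 315 counts in WT, 268 to 291 in 1-1 KO and 29 to 38 in 1-2 KO. The part that differences in hepatocyte or other marker levels have in the results below was not tested. Of all libraries, 1-2 KO replicate 1 stood farthest from the others of its line. The chi-square of its counts against replicates 2 and 3, divided by the degrees of freedom, was 15.1 and 16.1, against 2.67 between replicates 2 and 3. WT replicate 3 gave 10.4 and 6.41 against WT replicates 1 and 2, which gave 5.03 against each other, and the pairs of 1-1 KO gave 2.07 to 3.46.

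Death receptors of the TNF receptor family carry a cytoplasmic death domain that, once a ligand such as FasL or TRAIL is bound, recruits the adaptor FADD and procaspase-8. Caspase-8 activated in this complex cleaves the executioner caspases or the BH3 protein BID, which leads to release of cytochrome c from mitochondria, assembly of the APAF1 apoptosome and activation of caspase-9. IAPs are ubiquitin ligases that restrain this cascade. XIAP binds caspases directly, whereas BIRC2 (cIAP1) and BIRC3 (cIAP2) ubiquitinate RIPK1 at the TNF receptor and control NF-kB signalling, and BIRC3 is itself a well known NF-kB target.

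The promoter sequences of BIRC3 and CASP8, called in opposite directions in the knockouts, and of BIRC2, the neighbour of BIRC3, are shown so that the letters recognised by NF-kB can be read beside the values. The sequences were taken from RefSeq, build GRCh38.p14, and each run is the stretch directly before an annotated start site, written 5′ to 3′ on the plus strand, on which all of these genes lie. Capitals mark matches to the kappaB consensus in BIRC3, at chr11:102317234-102317483, and to the GC box GGGCGG in CASP8, at chr2:201233213-201233462. BIRC2, at chr11:102346964-102347213, held no match to either motif in the window of this start site.
BIRC3: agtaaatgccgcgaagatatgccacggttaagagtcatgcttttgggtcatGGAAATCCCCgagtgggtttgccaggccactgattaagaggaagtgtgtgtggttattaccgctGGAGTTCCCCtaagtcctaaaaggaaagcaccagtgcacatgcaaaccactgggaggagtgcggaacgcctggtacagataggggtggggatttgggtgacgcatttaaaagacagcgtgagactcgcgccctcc
BIRC2: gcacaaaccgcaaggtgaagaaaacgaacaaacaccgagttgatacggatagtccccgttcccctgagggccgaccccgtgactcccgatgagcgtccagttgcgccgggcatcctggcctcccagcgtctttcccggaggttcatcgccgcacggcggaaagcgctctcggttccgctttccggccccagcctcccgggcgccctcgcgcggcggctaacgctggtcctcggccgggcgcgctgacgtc
CASP8: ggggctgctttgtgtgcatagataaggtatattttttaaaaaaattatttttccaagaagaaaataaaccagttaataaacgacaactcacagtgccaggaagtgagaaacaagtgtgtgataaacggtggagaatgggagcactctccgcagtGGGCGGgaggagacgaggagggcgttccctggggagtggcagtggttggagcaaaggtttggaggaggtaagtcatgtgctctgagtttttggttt

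Both kappaB matches of BIRC3 were read on the minus strand and began 199 and 135 nt upstream of the start site, without overlapping. Searched on both strands, the kappaB consensus was found in 5.21% of 35116 annotated windows of this length. The GC box was found in 42.6% and TATAAA in 10.7% of them. None of the annotated CASP8, CASP9, XIAP and BIRC2 windows held a kappaB match, and 1 of 3 FAS windows held 1, 157 nt upstream of the start. A match describes these letters and is not evidence of a bound factor, and a missing match is not evidence that a gene lacks a site.

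Per kilobase of the canonical transcript, TNFRSF10B had the highest level of the 8 genes in each line, with 38.1 ± 0.713 CPM per kb in WT (SD, n = 3). On this scale it was followed in WT by CASP8 at 16.4 ± 0.417 and BIRC2 at 14.8 ± 0.456 CPM per kb, but per kilobase of all annotated exons BIRC2, at 12.4 ± 0.380, lay above CASP8, at 6.02 ± 0.153. XIAP, CASP9, TNFRSF10A and BIRC3 lay lower, at 5.35, 4.38, 4.04 and 2.54 CPM per kb, and FAS was close to 0. The libraries of neighbours in this order did not overlap within WT or within 1-2 KO, while XIAP and CASP9 overlapped within 1-1 KO. By canonical length the order differed between lines: BIRC2, at 14.3 ± 0.812 CPM per kb, lay above CASP8, at 10.1 ± 0.346, in 1-2 KO, and BIRC3 lay above TNFRSF10A in that line only. Per kilobase of all exons, BIRC2 lay above CASP8 in each line, with 9.30 against 7.49 in 1-1 KO and 11.9 against 3.72 in 1-2 KO.

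**Figure D1:**
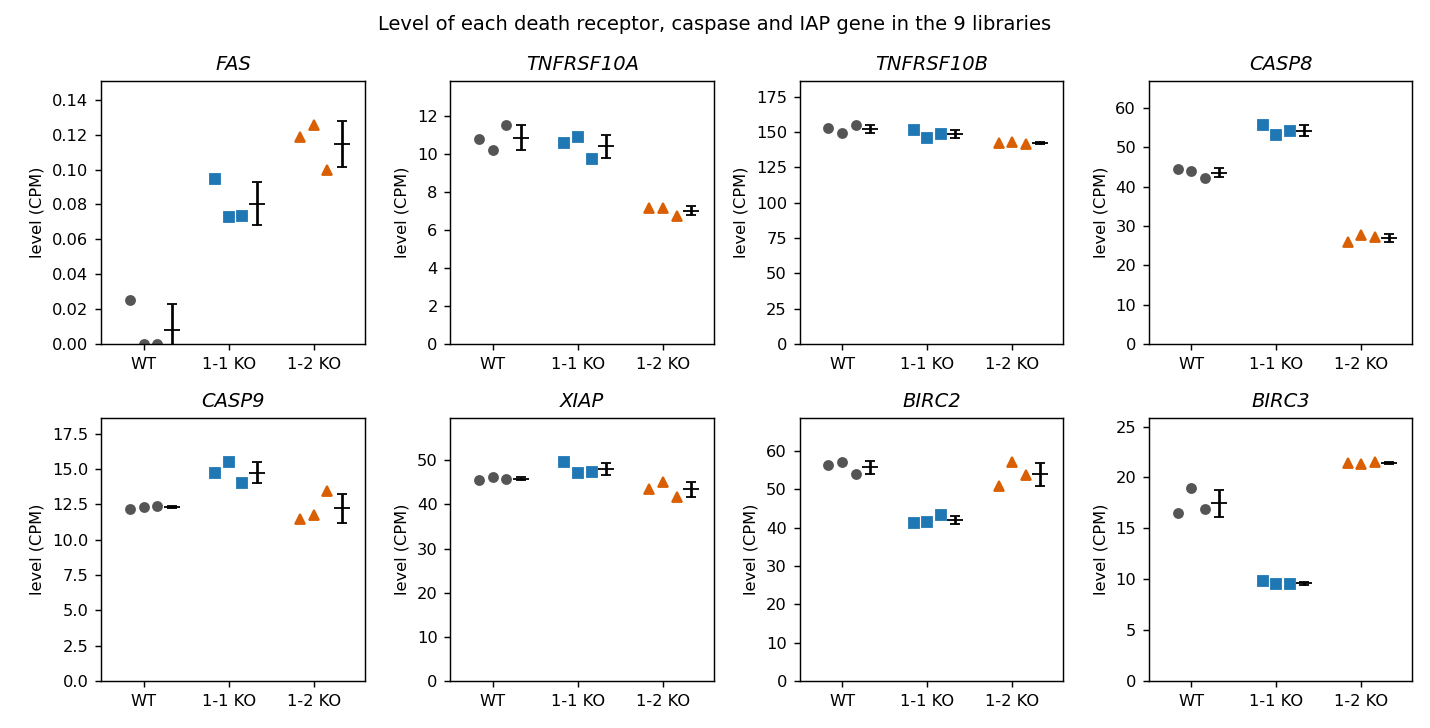
Level of each of the 8 genes in CPM, scaled by TMM, in each of the 9 libraries (WT grey circles, 1-1 KO blue squares, 1-2 KO orange triangles), with the mean and the SD beside the points and every axis starting at 0. CASP8 ran highest in 1-1 KO (mean 54.2 CPM) and lowest in 1-2 KO (mean 26.9), while BIRC3 ran the other way (9.48 to 9.78 against 21.4 to 21.6).

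In 1-1 KO compared to WT, CASP8 and CASP9 rose and BIRC2 and BIRC3 fell, while both TRAIL receptors and XIAP did not pass the test. Of the 7 members tested, 2 were called higher and 2 lower by edgeR's quasi-likelihood test at an adjusted p under 0.05, in a comparison in which 63.4% of all tested genes were called, 32.5% as higher and 30.9% as lower. Their median log2 fold change was −0.04, beside 0.01 over all tested genes, and 1 member changed by at least 1.5-fold, as 26.6% of all tested genes did. The 3 libraries of 1-1 KO did not overlap those of WT for 5 of the 7, as for 68.9% of all tested genes. In 1-2 KO compared to WT, BIRC3 rose and TNFRSF10A, TNFRSF10B and CASP8 fell. Here 1 of 7 members was called higher and 3 lower, against a background of 54.4% called, 28.2% as higher and 26.2% as lower, and the members' median was −0.08 beside 0.02. A fold of at least 1.5 was reached by 2 members and by 20.7% of all tested genes, and 5 of the 7 did not overlap between the lines, as did 58.4%. The share of members called was thus close to the background in both comparisons, and what follows describes single genes. Both comparisons use the same 3 WT libraries.

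Compared directly, 2 of the 7 members were higher in 1-2 KO than in 1-1 KO (BIRC2 and BIRC3) and 4 were lower (TNFRSF10A, CASP8, CASP9 and XIAP). In this comparison 65.3% of all tested genes were called, 33.1% as higher and 32.2% as lower. All 7 members were without overlap between the knockouts, like 69.8% of all tested genes, and 2 passed with a fold of at least 1.5, like 29.1%. CASP8 and BIRC3 were called in opposite directions in the knockouts against WT and were also called between the knockouts, a pattern found in 11.7% of all tested genes. In these bulk libraries, a change in the number of cells that express a gene and a change in RNA per cell cannot be told apart.

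**Figure D2:**
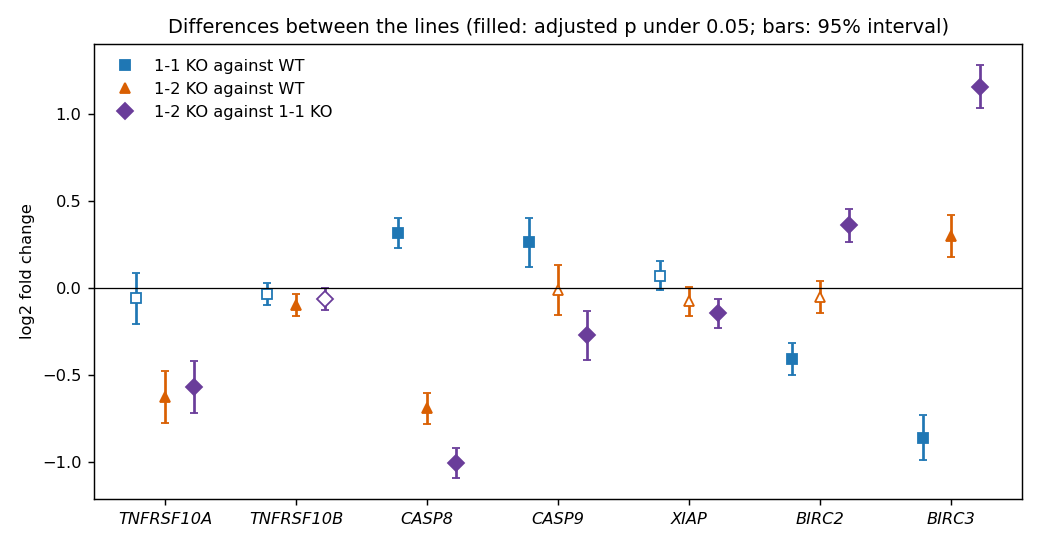
Log2 fold change of the 7 tested members in the 3 comparisons (blue squares, 1-1 KO against WT; orange triangles, 1-2 KO against WT; purple diamonds, 1-2 KO against 1-1 KO), with bars of the 95% interval and filled symbols where edgeR's adjusted p was under 0.05. CASP8 and BIRC3 lie on opposite sides of 0 in the knockouts, with differences between them of −1.01 and 1.16.

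FAS (ENSG00000026103, chr10:88953813-89029605, plus strand) encodes the receptor of FasL and was at the edge of detection. WT libraries held 1, 0 and 0 counts, those of 1-1 KO 4, 3 and 3, and those of 1-2 KO 5, 5 and 4. Both knockouts lay above WT, with 1, 10 and 14 reads in all. In raw counts the knockouts overlapped each other at 4. On the CPM scale the lowest library of 1-2 KO, at 0.0998, lay just above the highest of 1-1 KO, at 0.0945. Relative to the summed library sizes, the summed count was 8.76-fold that of WT in 1-1 KO, with an exact 95% interval of 1.25 to 380, and 12.5-fold in 1-2 KO, with an interval of 1.90 to 528, and these intervals cover counting error only. Between the knockouts the ratio was 1.43, with an interval of 0.589 to 3.59. Exons of FAS share 387 nt with those of ACTA2 on the opposite strand, which had 2 to 268 counts per library. They also share 166 nt with those of STAMBPL1 on the same strand, which had 35 to 79 counts. The strand setting of the counting is not given in the sources used here. FASLG, the gene of its ligand, had 0 to 3 counts per library.

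TNFRSF10A (ENSG00000104689, chr8:23190452-23225102, minus strand) encodes DR4, one of the death receptors of TRAIL. Its counts were 430, 384 and 364 in WT, 447, 449 and 397 in 1-1 KO and 301, 285 and 270 in 1-2 KO. All 3 libraries of 1-2 KO lay below every other library, while WT and 1-1 KO overlapped. In 1-2 KO the level fell from 10.9 ± 0.652 to 7.01 ± 0.239 CPM (SD, n = 3), a log2 fold change of −0.63 ± 0.08 (SE) with an adjusted p of 8.23e-06 by edgeR's quasi-likelihood test. For 1-1 KO the log2 fold change was −0.06 with a 95% interval of −0.21 to 0.09 and an adjusted p of 0.498.

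TNFRSF10B (ENSG00000120889, chr8:23020133-23069031, minus strand) encodes DR5, the other death receptor of TRAIL and a p53 target. It had 6080, 5600 and 4889 counts in WT, 6409, 5985 and 6059 in 1-1 KO, and 5993, 5703 and 5659 in 1-2 KO. On the CPM scale, where depth is taken into account, the lines lay close together, at 152 ± 2.85, 148 ± 2.96 and 142 ± 0.996. The 3 libraries of 1-2 KO were below those of WT without overlap. The decrease in 1-2 KO, −0.10 ± 0.03 on the log2 scale, passed with an adjusted p of 0.0178 in edgeR's test, but the level fell by 6.64% only and the call did not pass when the libraries were scaled by library size alone (adjusted p of 0.247) or when 1-2 KO replicate 3 was left out (0.0560). In 1-1 KO the log2 fold change was −0.04, with a 95% interval of −0.10 to 0.03. Of the exons of TNFRSF10B, 7.52% overlap those of RHOBTB2 on the opposite strand, which had 466 to 825 counts.

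The ratio of TNFRSF10A to TNFRSF10B counts within a library was 0.0712 ± 0.00298 in WT, 0.0701 ± 0.00476 in 1-1 KO and 0.0493 ± 0.00138 in 1-2 KO. The 3 ratios of 1-2 KO, 0.0477 to 0.0502, lay below the lowest of the other 6, 0.0655. TNFRSF10D, a decoy receptor for TRAIL from the same gene cluster, had log2 fold changes of 0.10 in 1-1 KO and 0.03 in 1-2 KO that did not pass (adjusted p of 0.0777 and 0.622 in edgeR's test). TNFRSF10C, the other decoy of the cluster, had 0 to 4 counts.

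CASP8 (ENSG00000064012, chr2:201233443-201361836, plus strand) encodes caspase-8, the initiator caspase of the receptor pathway. Its counts were 1765, 1651 and 1334 in WT, 2355, 2181 and 2203 in 1-1 KO and 1091, 1101 and 1093 in 1-2 KO. In CPM the 3 lines were fully separated, at 43.6 ± 1.11 in WT, 54.2 ± 1.33 in 1-1 KO and 26.9 ± 0.920 in 1-2 KO. CASP8 rose in 1-1 KO by 0.32 ± 0.04 on the log2 scale (adjusted p of 1.61e-05, edgeR) and fell in 1-2 KO, with a log2 fold change of −0.69 ± 0.04 (1.02e-08). Between the knockouts the difference was −1.01, with a 95% interval of −1.10 to −0.92 (1.02e-10). The 50 tested genes nearest to CASP8 had a median of −0.45 in this comparison, with 4 called higher and 37 lower.

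CASP8 is set here beside the genes near it, and whether its position has a part in its values was not tested. Among the 50 tested genes nearest to it on chromosome 2, the median log2 fold change in 1-1 KO was 0.53, and 38 were called higher and 2 lower, so the rise of CASP8 in this line was smaller than the median of its neighbourhood, by −0.21 on the log2 scale. In 1-2 KO the same neighbours had a median of 0.01, and 4 of the 50 lay below CASP8. Of the homologues beside CASP8, CASP10 lay above the neighbours' median of 0.53 in 1-1 KO and CFLAR below it. CASP10, a second caspase with death effector domains, changed by 0.96 ± 0.07 in 1-1 KO and by −0.05 ± 0.07 in 1-2 KO, with adjusted p of 2.16e-08 and 0.611 in edgeR's test. CFLAR, which encodes cFLIP, the catalytically inactive homologue that holds back caspase-8, was named for its place in this cluster after its values were seen, and had log2 fold changes of 0.35 ± 0.04 in 1-1 KO and 0.09 ± 0.04 in 1-2 KO, with adjusted p of 4.48e-06 and 0.0922.

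Within a library, CFLAR had 0.883 ± 0.0295 times the counts of CASP8 in WT, 0.906 ± 0.0140 times in 1-1 KO and 1.52 ± 0.0698 times in 1-2 KO. The ratios of WT and 1-1 KO spanned 0.861 to 0.917 and overlapped, and those of 1-2 KO lay between 1.44 and 1.57. For CASP10 the ratio to CASP8 was 0.191 ± 0.00279 in WT, 0.299 ± 0.00585 in 1-1 KO and 0.299 ± 0.0315 in 1-2 KO. These are ratios of counts that do not take transcript length into account, so they describe lines against each other and not which transcript is more abundant.

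CASP9 (ENSG00000132906, chr1:15490832-15526534, minus strand) encodes caspase-9, which is activated on the apoptosome. It had 486, 463 and 390 counts in WT, 622, 639 and 573 in 1-1 KO, and 482, 469 and 538 in 1-2 KO. In CPM, 1-1 KO lay above WT and 1-2 KO without overlap, and the range of 1-2 KO, 11.4 to 13.4, enclosed that of WT, 12.2 to 12.4. The level rose in 1-1 KO from 12.3 ± 0.0833 to 14.8 ± 0.748 CPM (log2 fold change 0.26 ± 0.07, adjusted p of 0.00554, edgeR). In 1-2 KO the log2 fold change was −0.01, with a 95% interval of −0.15 to 0.13 and an adjusted p of 0.911.

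XIAP (ENSG00000101966, chrX:123859712-123913972, plus strand), the IAP that binds caspase-9 and executioner caspases, varied least between the lines after TNFRSF10B. Its counts were 1812, 1731 and 1442 in WT, 2104, 1940 and 1929 in 1-1 KO, and 1830, 1799 and 1670 in 1-2 KO. Against WT, 1-1 KO differed by 0.07 ± 0.04 and 1-2 KO by −0.08 ± 0.04 on the log2 scale, with adjusted p of 0.169 and 0.146 in edgeR's test. Their 95% intervals were −0.01 to 0.15 and −0.16 to 0.01. The knockouts differed from each other, with a level of 48.1 ± 1.44 CPM in 1-1 KO and 43.4 ± 1.75 in 1-2 KO (log2 difference −0.15 ± 0.04, adjusted p of 0.00757).

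BIRC2 (ENSG00000110330, chr11:102347211-102378670, plus strand) encodes cIAP1. Counts were 2239, 2146 and 1700 in WT, 1744, 1709 and 1766 in 1-1 KO, and 2145, 2271 and 2153 in 1-2 KO. On the CPM scale 1-1 KO lay below the other lines without overlap, while WT and 1-2 KO overlapped. BIRC2 fell in 1-1 KO from 55.8 ± 1.72 to 42.0 ± 1.11 CPM, a log2 fold change of −0.41 ± 0.05 with an adjusted p of 3.39e-06 (edgeR). The log2 fold change in 1-2 KO was −0.05, with a 95% interval of −0.14 to 0.04 (adjusted p of 0.380). Direct comparison of the knockouts gave 0.36 ± 0.05 (1.09e-05).

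BIRC3 (ENSG00000023445, chr11:102317484-102339403, plus strand) encodes cIAP2 and lies directly upstream of BIRC2. It had 657, 712 and 533 counts in WT, 414, 390 and 390 in 1-1 KO, and 902, 851 and 864 in 1-2 KO. All 3 lines were separated, at 17.5 ± 1.33, 9.61 ± 0.156 and 21.4 ± 0.100 CPM. Against WT, BIRC3 fell in 1-1 KO with a log2 fold change of −0.86 ± 0.07 (adjusted p of 4.59e-08, edgeR) and rose in 1-2 KO by 0.30 ± 0.06 (9.83e-04). The level in 1-2 KO was 2.23-fold that in 1-1 KO, with a log2 difference of 1.16 and a 95% interval of 1.03 to 1.28 (1.35e-09). This was the largest difference of a tested member in any of the 3 comparisons.

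Of the 50 tested genes nearest to BIRC3, 3 lay below it in 1-1 KO, where their median log2 fold change was −0.04, and 33 in 1-2 KO, where the median was 0.08. The nearest tested genes on either side of the pair were YAP1, a transcriptional coactivator, which rose in 1-1 KO by 0.32 ± 0.04, and TMEM123, which fell in 1-1 KO with a log2 fold change of −0.20 ± 0.03 (adjusted p of 2.10e-06 and 1.18e-04 in edgeR's test). Further downstream, DYNC2H1 and PDGFD rose in 1-2 KO by 3.16 and 4.91 (2.36e-08 and 3.26e-11), and were named after their values were seen. The ratio of BIRC3 to BIRC2 counts was 0.313 ± 0.0192 in WT, 0.229 ± 0.00829 in 1-1 KO and 0.399 ± 0.0230 in 1-2 KO, and the 3 lines did not overlap. The members of the pair thus shared the direction in 1-1 KO, with a larger log2 fold change for BIRC3, and only BIRC3 passed the test in 1-2 KO.

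The other genes of the pathway were taken from 15 lists written from general knowledge, of which 102 genes besides the members passed the filter out of 128. Of these, MLKL, PTGS2, PHLDA3 and SEPTIN4 passed only through the line in which they were highest, so their calls are partly built in by the filter. In 1-1 KO, 32 of the 102 were called higher and 41 lower (median log2 fold change −0.04). In 1-2 KO, 36 were called higher and 28 lower, with a median of 0.07. The share called was 71.6% in 1-1 KO and 62.7% in 1-2 KO, next to 63.4% and 54.4% of all tested genes.

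Of 8 death ligand genes, 3 were tested. TNFSF10, which encodes TRAIL, the ligand of the receptors DR4 and DR5, had 88, 80 and 46 counts in WT, 164, 159 and 165 in 1-1 KO and 44, 30 and 33 in 1-2 KO, so that the 3 lines did not overlap. It rose in 1-1 KO by 1.01 ± 0.15 and fell in 1-2 KO with a log2 fold change of −1.15 ± 0.18 (adjusted p of 3.95e-05 and 9.63e-05, edgeR). TNFSF15, whose product TL1A is the ligand of death receptor 3, rose in both lines, by 1.88 and 0.72 (1.19e-06 and 0.0146). TNFSF12 (TWEAK) had log2 fold changes of 0.07 and −0.49 that did not pass (0.850 and 0.190). TNF had 3 to 23 counts per library and was not tested, and EDA had 0 in every library.

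Among other death receptors and decoys, 7 of 12 genes were tested, of which 2 were called higher and 2 lower in 1-1 KO, and 1 higher and 3 lower in 1-2 KO. Over all tested genes, 63.4% and 54.4% were called in these comparisons. TNFRSF21 (DR6) fell from 344 CPM in WT to 194 in 1-2 KO (log2 fold change −0.82, adjusted p of 1.88e-10, edgeR), and its value in 1-1 KO, −0.08, did not pass (0.0772). TNFRSF11B, whose product osteoprotegerin can bind TRAIL, rose in 1-1 KO by 0.37 and fell in 1-2 KO, with a log2 fold change of −1.44 (1.32e-06 and 2.80e-12). The 50 tested genes nearest to TNFRSF11B had a median of 0.38 in 1-1 KO, with 33 called higher and 2 lower. In 1-2 KO their median was −0.02. Of the TNF receptor genes, TNFRSF1A fell in both lines, by −0.20 and −0.37 on the log2 scale (9.45e-04 and 4.45e-06). TNFRSF1B had 49, 48 and 19 counts in WT, 3, 0 and 1 in 1-1 KO and 35, 23 and 23 in 1-2 KO. It fell in 1-1 KO (adjusted p of 2.15e-06, edgeR), and its log2 fold change in 1-2 KO was −0.67 (0.0776), or −0.87 without 1-2 KO replicate 1 (0.0401).

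Of 9 genes of receptor adaptors and the complex around caspase-8, 2 were called higher and 3 lower in each knockout. The background was 63.4% of all tested genes called in 1-1 KO and 54.4% in 1-2 KO. PEA15, a death effector domain protein that binds FADD, fell in 1-1 KO and rose in 1-2 KO (log2 fold changes −0.87 and 0.20, adjusted p of 2.28e-09 and 0.00254, edgeR). FAF1, which encodes a FAS-associated factor, fell in both (−0.61 and −0.46, with 4.17e-08 and 1.02e-06). RIPK1, the kinase on which the cIAPs place ubiquitin chains, fell in 1-2 KO (−0.40, 5.03e-05), and its value in 1-1 KO was 0.01 (0.905). FADD itself rests on the library that stood apart, and is named for that reason: it had 544 to 558 counts in WT, 505 to 627 in 1-1 KO, and 1453, 572 and 606 in 1-2 KO. Its log2 fold change in 1-2 KO was 0.49 (adjusted p of 0.115) and −0.05 without 1-2 KO replicate 1 (0.715).

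CASP6, an executioner caspase, had a log2 fold change of 0.45 in 1-1 KO and of −0.27 in 1-2 KO, so that it rose in 1-1 KO and fell in 1-2 KO (adjusted p of 4.33e-05 and 0.00395, edgeR). It was lower in 1-2 KO than in 1-1 KO, by −0.72 on the log2 scale (3.43e-07). Apoptosome genes followed CASP9 in 1-1 KO, where APAF1 rose by 0.39 and CYCS, which encodes cytochrome c, by 0.33 (1.10e-06 and 2.28e-06), while AIFM1, a mitochondrial flavoprotein grouped with them, fell (−0.12, 0.0163). In 1-2 KO, APAF1 and AIFM1 fell (−0.27 and −0.55, with 6.21e-05 and 2.76e-08), and CYCS, at −0.04, did not pass (0.331).

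Other caspase genes and their adaptors were tested for 4 of 9 genes. CRADD, the adaptor of caspase-2, fell in both lines, with log2 fold changes of −1.44 in 1-1 KO and −0.85 in 1-2 KO (2.84e-10 and 5.96e-08, edgeR's adjusted p). PIDD1, its partner in the PIDDosome, rose in 1-2 KO by 0.86 (1.87e-05). CASP4 rose in both by 0.16 and 0.15 (0.0228 and 0.0322). Of the 10 caspase substrates, 2 were called higher and 5 lower in 1-1 KO, and 3 higher and 3 lower in 1-2 KO. The background was 63.4% and 54.4% of all tested genes called. LMNA, which encodes lamin A, fell in both lines, from 360 CPM in WT to 180 in 1-1 KO and 232 in 1-2 KO (adjusted p of 1.94e-08 and 2.53e-06). PARP1 fell in 1-1 KO and rose in 1-2 KO (−0.40 and 0.31, with 7.62e-08 and 1.58e-06), GSDMD rose in both (0.83 and 0.34, with 4.59e-08 and 4.01e-04), and BID fell in 1-1 KO (−0.58, 1.89e-04).

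Beyond the members, 3 of 5 IAP genes were tested. BIRC5 (survivin) rose in 1-1 KO by 0.38 (adjusted p of 1.84e-06, edgeR), and its log2 fold change in 1-2 KO was 0.00 (0.965). BIRC6 was at −0.06 and −0.09 and NAIP at 0.55 and 0.22, none of which passed, and BIRC8 had 0 counts in every library. Among genes of IAP antagonists, 4 of 5 were tested. AREL1, a ubiquitin ligase that acts on antagonists, rose in both (0.22 and 0.16, with 0.00188 and 0.0175), while DIABLO (0.02 and 0.31), HTRA2 (0.11 and 0.07) and SEPTIN4 (−0.77 and 0.34) did not pass. As background, 63.4% of all tested genes were called in 1-1 KO and 54.4% in 1-2 KO. Of the 4 necroptosis genes tested, 1 was called higher and 2 lower in 1-1 KO and 3 higher in 1-2 KO. MLKL, the executor of this form of death, rose from 6, 7 and 2 counts in WT to 46, 36 and 57 in 1-1 KO and 10, 13 and 14 in 1-2 KO (log2 fold changes 3.00 ± 0.33 and 1.12 ± 0.42, adjusted p of 2.33e-06 and 0.0370), and it passed the filter on low counts through 1-1 KO alone. PGAM5, a mitochondrial phosphatase, fell in 1-1 KO (−0.67, 1.90e-09), and its value in 1-2 KO was −0.07 (0.134). SPATA2, the adaptor of the deubiquitinase CYLD, fell in 1-1 KO and rose in 1-2 KO (−0.29 and 0.16, with 0.00134 and 0.0427), the latter at an adjusted p of 0.0811 without 1-2 KO replicate 1. CYLD rose in 1-2 KO by 0.34 (0.00122), with −0.03 in 1-1 KO (0.742). RIPK3, the kinase that activates MLKL, had 0 to 2 counts.

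NF-kB factors and feedback genes were called in both directions in 1-1 KO and mostly higher in 1-2 KO. The other NF-kB lists below held calls in both directions in 1-2 KO. Of 11 NF-kB factors and feedback genes, 2 were called higher and 6 lower in 1-1 KO (median log2 fold change −0.26), and 9 higher in 1-2 KO (median 0.44), beside medians of 0.01 and 0.02 and shares called of 63.4% and 54.4% over all tested genes. Between the knockouts, 10 of the 11 were higher in 1-2 KO, in a comparison in which 65.3% of all tested genes were called, 33.1% as higher, and NFKBIB was not called. The other two in 1-2 KO, RELA at −0.01 and NFKBIB at 0.44, did not pass. Without 1-2 KO replicate 1, 7 of these genes were called higher in 1-2 KO, with NFKB2 and BCL3 no longer called. TNFAIP3, which encodes the deubiquitinase A20, had 963, 812 and 733 counts in WT, 654, 590 and 593 in 1-1 KO and 1587, 1404 and 1432 in 1-2 KO. It fell in 1-1 KO and rose in 1-2 KO, with log2 fold changes of −0.64 ± 0.06 and 0.65 ± 0.06 (adjusted p of 3.47e-07 and 2.30e-07, edgeR). RELB (−0.29 and 0.65, with 0.00249 and 1.53e-06), TNIP1 (−0.38 and 0.46, with 9.96e-06 and 1.54e-06) and NFKBIE (−0.58 and 0.22, with 1.54e-06 and 0.00600) had the same pair of directions, whereas NFKBIA rose in both lines (0.18 and 0.68, with 0.00608 and 3.87e-08).

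**Figure D3:**
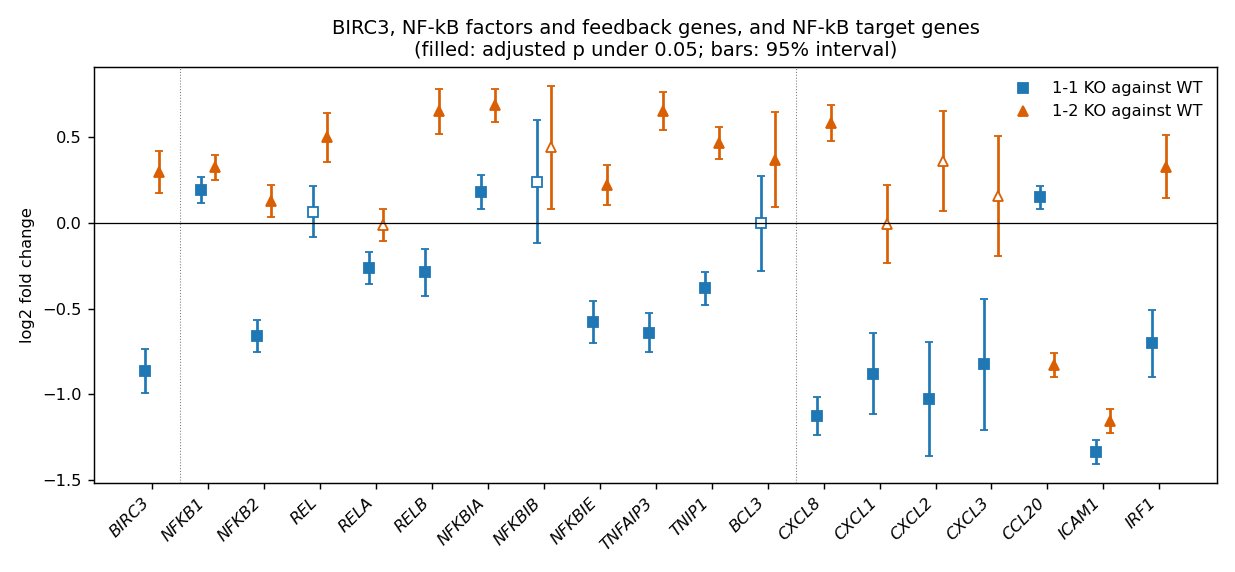
Log2 fold change against WT of BIRC3, of 11 NF-kB factors and feedback genes and of 7 NF-kB target genes for 1-1 KO (blue squares) and 1-2 KO (orange triangles), with bars of the 95% interval and filled symbols where edgeR's adjusted p was under 0.05. TNFAIP3, RELB, TNIP1, NFKBIE and CXCL8 lie below 0 in 1-1 KO and above 0 in 1-2 KO as BIRC3 does, while ICAM1 lies below 0 in both. Among other genes drawn, NFKBIA lies above 0 in both, and CCL20 lies above 0 in 1-1 KO and below 0 in 1-2 KO. PTGS2, at 0 or 1 count in every WT library, is not drawn.

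NF-kB target genes were called in both directions. PTGS2 was at 0 or 1 count in every WT library and passed the filter through 1-1 KO alone. Of the 7 others tested, 1 was called higher and 6 lower in 1-1 KO (median log2 fold change −0.88), and 2 higher and 2 lower in 1-2 KO (median 0.15). Over all tested genes the medians were 0.01 and 0.02, and 63.4% and 54.4% were called. CXCL8, a chemokine, fell in 1-1 KO from 131 ± 9.42 to 60.0 ± 1.56 CPM and rose in 1-2 KO to 196 ± 13.1 (−1.12 and 0.58 on the log2 scale, adjusted p of 6.70e-10 and 5.71e-07, edgeR). IRF1 did the same at −0.70 and 0.33 (2.67e-05 and 0.00909). ICAM1, an adhesion molecule, fell in both lines (−1.33 and −1.15, with 1.30e-12 and 5.08e-12), and CCL20 rose in 1-1 KO and fell in 1-2 KO (0.15 and −0.83, with 0.00170 and 1.55e-10). The kappaB consensus was also searched in the same windows of other genes. It was found in TNFAIP3 (2 matches), NFKBIA (1), CCL20 (1), 1 of 2 windows of TNIP1 (1), 1 of 4 windows of CFLAR (1) and 2 of 3 windows of NFKB2 (4, of which some overlap on opposite strands, and 2), and not in CXCL8 or ICAM1. The search covered this pattern and these windows only, so a missing match does not show that a gene lacks a kappaB site.

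Genes of the noncanonical NF-kB pathway, which the cIAPs hold in check through the kinase NIK, included 6 tested. MAP3K14, which encodes NIK, fell in both lines (log2 fold changes −1.21 and −0.71, adjusted p of 2.42e-09 and 5.82e-07, edgeR). TRAF3, the scaffold between NIK and the cIAPs, rose in both by 0.30 and 0.43 (2.87e-05 and 8.97e-07). TRAF5 fell in 1-1 KO (−1.43, 9.84e-08), and TNFRSF11A (RANK) rose in 1-2 KO by 2.22, from 0.684 to 3.21 CPM (1.53e-07). Of 11 genes of the linear ubiquitin and NF-kB kinase complexes, 2 were called higher and 7 lower in 1-1 KO, and 2 higher and 3 lower in 1-2 KO. Over all tested genes, 63.4% and 54.4% were called. RBCK1 (HOIL-1) fell in 1-1 KO and rose in 1-2 KO (−0.37 and 0.78, with 0.0152 and 6.27e-05), and CHUK (IKK alpha) fell in both (−0.38 and −0.43, with 8.47e-07 and 3.15e-07).

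Of 18 p53 target genes, which include the members FAS and TNFRSF10B, 17 were tested. In 1-1 KO 8 were called higher and 5 lower, and in 1-2 KO 6 higher and 7 lower. The share called was 76.5% in each, beside 63.4% and 54.4% of all tested genes. These counts include PHLDA3, which passed the filter on low counts through 1-2 KO alone. CDKN1A, which encodes the cell cycle inhibitor p21, fell in 1-2 KO (−1.43, adjusted p of 1.76e-08, edgeR), and its value in 1-1 KO was 0.07 (0.474). GDF15 rose in 1-1 KO by 0.43 and fell in 1-2 KO (−1.01), with adjusted p of 0.00121 and 1.02e-06, and TP53INP1 rose in both (1.18 and 0.33, with 2.13e-09 and 9.97e-04).

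For each tested member, the gene of these lists whose centred log2 CPM lay closest to it over the 9 libraries was found among 108 candidates. For BIRC3 this was PEA15 (Euclidean distance 0.271, Pearson's r of 0.982), for BIRC2 IKBKB (0.191, 0.946) and for CASP8 CCL20 (0.239, 0.983). TNFRSF10A lay closest to AIFM1 (0.252, 0.956), CASP9 to SESN1 (0.272, 0.803) and XIAP to MAP3K7 (0.141, 0.795). TNFRSF10B lay closest to ACIN1 (0.155), with an r of 0.0780, since both varied little. The 9 libraries fall into 3 lines, so these values describe differences between lines and carry no p.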

How the data were processed

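The authors aligned the paired reads of stranded mRNA libraries to GRCh38 (STAR) and assigned them to genes (featureCounts). The deposited table holds their raw counts, not normalized. Tool versions, the strand setting and the handling of reads with several matches are not given in the sources used here. The authors' methods state a release of the reference, and genes were matched here to another, GENCODE 44, in which SOD2 had no match and was not analysed here.

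Counts were tested with edgeR 4.0.16 in R 4.3.3, with filterByExpr (minimum count 10, minimum total 15), TMM scaling, all 9 libraries in 1 fit and Benjamini-Hochberg adjustment over 17207 genes. Adjusted p-values come from this quasi-likelihood test unless another is named. SE was derived from its F statistic, and intervals are the estimate with a normal 95% range. Per kilobase levels used the Ensembl canonical transcript. The steps were tested on simulated data.

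The members and lists were chosen with earlier results of these data known. Named were the members, all tested genes of lists of up to 6 genes, the 3 smallest adjusted p-values per comparison of longer lists, and the nearest gene of each member. Some genes that this rule selects are not reported here. Genes named outside this rule, apart from those listed with few or no counts, are CFLAR, FADD, TNFRSF10C, TNFRSF10D, RELA, NFKBIB, BCL3, PHLDA3 and KRT19. Named by position, also outside it, are YAP1, TMEM123, DYNC2H1, PDGFD, RHOBTB2, ACTA2 and STAMBPL1. All of these were chosen after their values were seen.

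Alternatives were DESeq2 1.42.0, its size factors, library size alone, other filters, only the lines compared, a replicate term, a threshold of 0.01, a fold of at least 1.5, subtraction of the median of 50 neighbours and leaving out each library.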

Additional observations from a re-analysis of the deposited data

Results flagged for a closer look

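The values of 2 members differed between the knockouts in opposite directions from WT, and the direct comparison of 1-2 KO with 1-1 KO passed edgeR's quasi-likelihood test. CASP8 differed by −1.01 on the log2 scale, being lower in 3 of 3 libraries of 1-2 KO than in any of 1-1 KO (adjusted p of 1.02e-10). BIRC3 differed by 1.16, being higher in 3 of 3 libraries (1.35e-09). In the same comparison, the 50 tested genes nearest to CASP8 had a median of −0.45, with 4 called higher and 37 lower. Those nearest to BIRC3 had a median of 0.19, with 24 called higher and 10 lower. After subtraction of the neighbours' median, CASP8 was at −0.21 in 1-1 KO and −0.70 in 1-2 KO against WT, in the same direction. BIRC3, at −0.82 and 0.21, kept opposite directions.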

How the results depend on the processing

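Under the other tools, scalings, filters and fits and without each library in turn, calls for BIRC3, BIRC2, TNFRSF10A and CASP8 kept their direction and their side of the threshold. With a fold of at least 1.5, the members called were 0 higher and 1 lower in 1-1 KO (2 and 2 in the reported test), 0 higher in 1-2 KO (reported 1), and 1 higher and 1 lower between the knockouts (2 and 4), and genes of the pathway lists called were 29, 24 and 38 in the 3 comparisons (73, 64 and 80). Without a filter, FAS was also called in 1-2 KO, which made 2 members higher. Its adjusted p there was 0.0156, and 0.0641 in 1-1 KO. Subtraction of the neighbours' median shifted the log2 fold changes and kept the adjusted p-values of the reported fit, so it is not a new test. The error of that median was not carried along. CASP8 in 1-1 KO turned to −0.21, which moved it from the higher to the lower members and left 1 higher. Values that had not passed turned sign for TNFRSF10A (0.0031) and TNFRSF10B (0.0401) in 1-1 KO, and for CASP9 in 1-2 KO (0.22). With library size alone, which shifted the median of all genes to 0.06 and 0.07, values that had not passed turned sign for TNFRSF10B in 1-1 KO (0.0136) and for CASP9 (0.0437) and BIRC2 (0.0041) in 1-2 KO, XIAP was called in 1-1 KO (0.12, adjusted p of 0.0252, edgeR), and TNFRSF10B was not called in 1-2 KO. The cause was not tested. Between the knockouts, TNFRSF10B was called lower with a filter of 10 counts in every library (−0.08), in a fit of the 2 lines and without WT replicate 3. Leaving out a library gave 2 to 3 members lower in 1-2 KO and 4 to 5 between the knockouts, and CASP9 in 1-2 KO ranged from −0.0830 to 0.0347, turning to 0.0347 and 0.0148 without 1-2 KO replicates 1 and 2. Leaving out 1-2 KO replicate 1, chosen after seeing the data, gave 78, 65 and 78 pathway genes called. Deviations of same-numbered libraries from the mean of their line had correlations from −0.19 to 0.05. WT replicate 3 and 1-2 KO replicate 1, with different numbers, reached 0.24. With 3 libraries per line, these correlations cannot settle whether the numbers pair the libraries. A fit with the replicate block gave the same 2 higher and 2 lower members in 1-1 KO, 1 and 3 in 1-2 KO, and 2 and 4 between the knockouts. Depth limits FAS, with at most 5 counts per library.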
